A study of Mus musculus with 6 samples.

Results

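Rrad, Gem, Rem1 and Rem2 encode the RGK proteins, a small branch of the Ras family of GTPases. These 4 genes, of 23152 genes with a symbol on the array, were followed in the soleus of mice that lack the G protein subunit Gα13 in skeletal muscle. They were chosen by name, with the result for Rrad in this same comparison already known, so their values are given as a description without a test. Together they have 31 probe sets, each reporting a short part of a transcript: 7 each for Rrad, Gem and Rem1 and 10 for Rem2. All 31 were kept, with no filter on low values.

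The control mice (WT) were Gna13 flox/flox, carrying Gna13 alleles that Cre recombinase can delete. The knockout mice (MKO) were Ckmm-Cre; Gna13 flox/flox, with Cre driven by the muscle creatine kinase promoter, so cells of the soleus that do not use this promoter keep the gene. Controls carried no Cre, and all 6 mice were males aged 18 weeks, fasted for 14 h. Each group had 3 mice, described in the labels as biological replicates, with 1 array per mouse.

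RGK proteins bind the beta subunits of voltage-gated calcium channels and lower the calcium current. Rad, the product of Rrad, was named for its association with diabetes after its transcript was found raised in muscle of people with type 2 diabetes, and it is known to increase in denervated and regenerating muscle. In the heart, phosphorylation of Rad by protein kinase A relieves its hold on the L-type channel and lets beta-adrenergic signals raise the calcium current.

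As a check of genotype, Gna13 was read first. Its gene value stood at 6.53, 6.92 and 6.74 in WT and at 6.63, 6.78 and 6.92 in MKO, on the log2 scale of the array, with overlapping groups. Of its 7 probe sets, 17257825 alone was separated downwards and read 5.48, 6.23 and 6.16 in WT and 3.43, 4.25 and 4.33 in MKO. Another 3 probe sets were higher in all MKO mice, the remaining 3 overlapped, and the sources used here do not say which of them lie in the deleted exons. Slow fibre transcripts were present, with the slow myosin heavy chain Myh7 at 10.90 to 11.21 on all arrays. This was far above the array medians over all probe sets of 4.87 to 4.95. The fast fibre transcript Myh2 was as bright, with means of 11.63 in WT and 11.54 in MKO. These levels mark muscle but do not by themselves identify the soleus. Myh4, the type IIb myosin heavy chain, read 10.89, 9.48 and 11.72 in WT and 5.11, 7.94 and 11.51 in MKO, with wide spread within both genotypes (SD 1.13 and 3.21). Other fast fibre transcripts varied less, among them Myh2 (SD 0.06 and 0.16) and Tnni2 (SD 0.05 and 0.01).

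Rrad was lower in every MKO mouse than in any WT mouse. Its gene value, the mean of its 7 probe sets, was 7.39, 7.78 and 7.13 in the WT mice and 6.02, 6.16 and 6.40 in the MKO mice. The groups did not overlap, and a gap of 0.73 separated the lowest WT from the highest MKO mouse. The difference, MKO minus WT, was −1.24 (SE 0.16) on the log2 scale, a 2.36-fold lower level, from 7.43 ± 0.33 to 6.19 ± 0.19 (SD, n = 3). Among all genes 1 had a lower difference, the myosin Myh4, whose mice overlapped between the groups. In bulk muscle, fewer cells that express a gene and less RNA per cell cannot be told apart.

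**Figure D1:**
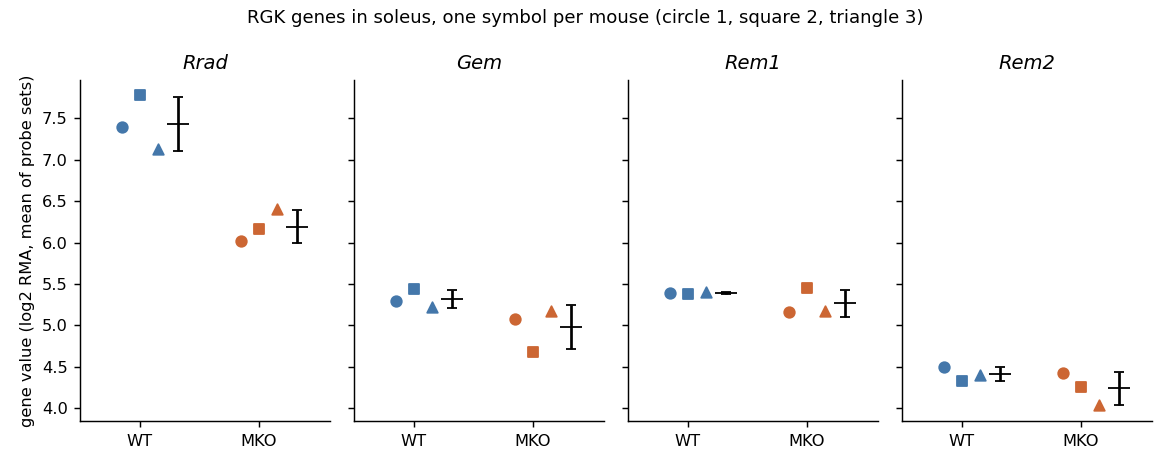
Gene values of the 4 RGK genes (y axis, log2 RMA, mean of a gene's probe sets) in 3 WT mice (blue) and 3 MKO mice (orange), with the group mean and SD as black bars. Rrad in MKO lies at 6.02 to 6.40, below its WT range of 7.13 to 7.78, while Gem is separated by 0.05 and Rem1 and Rem2 overlap.

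The lower Rrad level was seen along the whole set of its probe sets. All 7 had a lower mean in MKO, by 0.56 to 1.92 on the log2 scale, and in 6 of them the 3 MKO arrays were all below the 3 WT arrays, as in 5.21% of all 233753 probe sets with a single gene symbol. Probe set 17512325 differed most, at 7.24, 7.89 and 7.09 in WT against 5.10, 5.70 and 5.66 in MKO (−1.92, 3.78-fold lower). It was followed by 17512328, at 8.18, 8.42 and 8.08 in WT against 6.79, 6.31 and 6.36 in MKO (−1.74, 3.34-fold lower). Even the smallest of the 7 differences left the groups apart, with 17512326 at 7.49, 7.72 and 7.34 in WT and 6.94, 6.97 and 6.96 in MKO (−0.56).

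The other 4 Rrad probe sets lay between these. Probe set 17512327, the brightest, read 8.47, 9.04 and 8.38 in WT and 7.25, 7.41 and 7.28 in MKO, with the 3 MKO mice close together. Both 17512323 (−0.86) and 17512324 (−0.89) were apart as well. The exception was 17512322, where the highest MKO mouse (4.13) passed the lowest WT mouse (4.06). It was also the 1 dim Rrad probe set, below the array median on 5 of the 6 arrays, whereas the other 6 were above it on every array.

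Among genes with at least 5 probe sets, 1.18% had a lower MKO mean in all of them, and Rrad was the only one of 15943 whose share of separated probe sets was as high as 6 of 7 (0.00627%). Because the gene was picked for its difference in these arrays, nothing further is read from that share.

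Mice of the same group also differed in Rrad, in a pattern that its probe sets shared. All 7 ranked the WT mice alike, with replicate 2 highest and replicate 3 lowest, and 0.0941% of genes with at least 5 probe sets had a single WT order on each of them. In MKO the ranks were mixed, with replicate 1 lowest on 5 probe sets and replicate 2 on the other two. The pooled SD within groups was 0.27 for Rrad, and 77.1% of genes had a smaller one. Leaving out 1 mouse at a time moved the Rrad difference between −1.39 (without WT replicate 3) and −1.07 (without WT replicate 2), and the groups stayed apart each time.

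Gem, an RGK protein first known as a transcript induced in activated lymphocytes, stood just below its WT range in MKO. Its gene value was 5.30, 5.43 and 5.23 in WT and 5.08, 4.68 and 5.18 in MKO. The groups were apart by a gap of only 0.05, and the difference of −0.34 (SE 0.16) rested in part on MKO replicate 2, without which it was −0.19. The mean was lower in MKO for all 7 probe sets, by 0.13 to 0.72, but in 6 of them the mice overlapped. Only 3 of the 7 were above the array median on every array.

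The 1 Gem probe set with separated groups was 17411847. It read 6.69, 6.77 and 6.63 in WT and 5.76, 6.11 and 6.06 in MKO (−0.72, 1.65-fold lower), with no overlap. By contrast 17411844 ranged from 5.12 to 6.50 in WT and from 4.76 to 5.77 in MKO, so that its spread between mice of one genotype exceeded its difference of −0.37. When each mouse was given the median instead of the mean of the 7 probe sets, the Gem difference changed sign to 0.12, with WT at 5.68, 5.90 and 5.12 and MKO at 5.76, 5.68 and 5.61.

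Rem1, a family member known from heart and skeletal muscle, showed overlapping groups. WT mice were tightly grouped at 5.40, 5.38 and 5.41, and MKO mice spread from 5.17 and 5.18 to 5.46. The difference was −0.13 (SE 0.14), which became −0.22 without MKO replicate 2, the 1 MKO mouse above the WT range, and 0.05 when only probe sets above the median level were used. Of its 7 probe sets, 5 were lower and 2 higher on average, and none was apart. The brightest, 17377745, read 8.84, 8.65 and 9.19 in WT and 8.82, 8.55 and 8.63 in MKO.

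Rem2, the member known best from neurons, also showed overlapping groups. It stood at 4.50, 4.33 and 4.40 in WT and at 4.43, 4.26 and 4.04 in MKO, a difference of −0.17 (SE 0.16) that was −0.07 without MKO replicate 3, −0.26 without MKO replicate 1 and −0.01 with probe sets above the median level. Its 10 probe sets went both ways, with 6 lower and 4 higher on average. On 6 of the 10 every array lay below its own median over all probe sets.

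The probe sets of Rem2 disagreed with each other more than those of the other members, with an SD of their differences of 0.63 against 0.20 to 0.50 for Gem, Rem1 and Rrad. Probe set 17300307 was lower in every MKO mouse, at 3.55, 3.85 and 3.61 against 4.52, 4.74 and 4.78 in WT. At the other end 17300313 was higher in every MKO mouse, at 4.58, 4.46 and 4.28 against 3.45, 3.67 and 3.55, where 4.69% of all probe sets had every MKO array above every WT array. Both were below the array median on every array. The 1 Rem2 probe set above the array median on all arrays, 17300304, read 7.53, 7.46 and 7.79 in WT and 7.46, 7.55 and 7.24 in MKO.

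**Figure D2:**
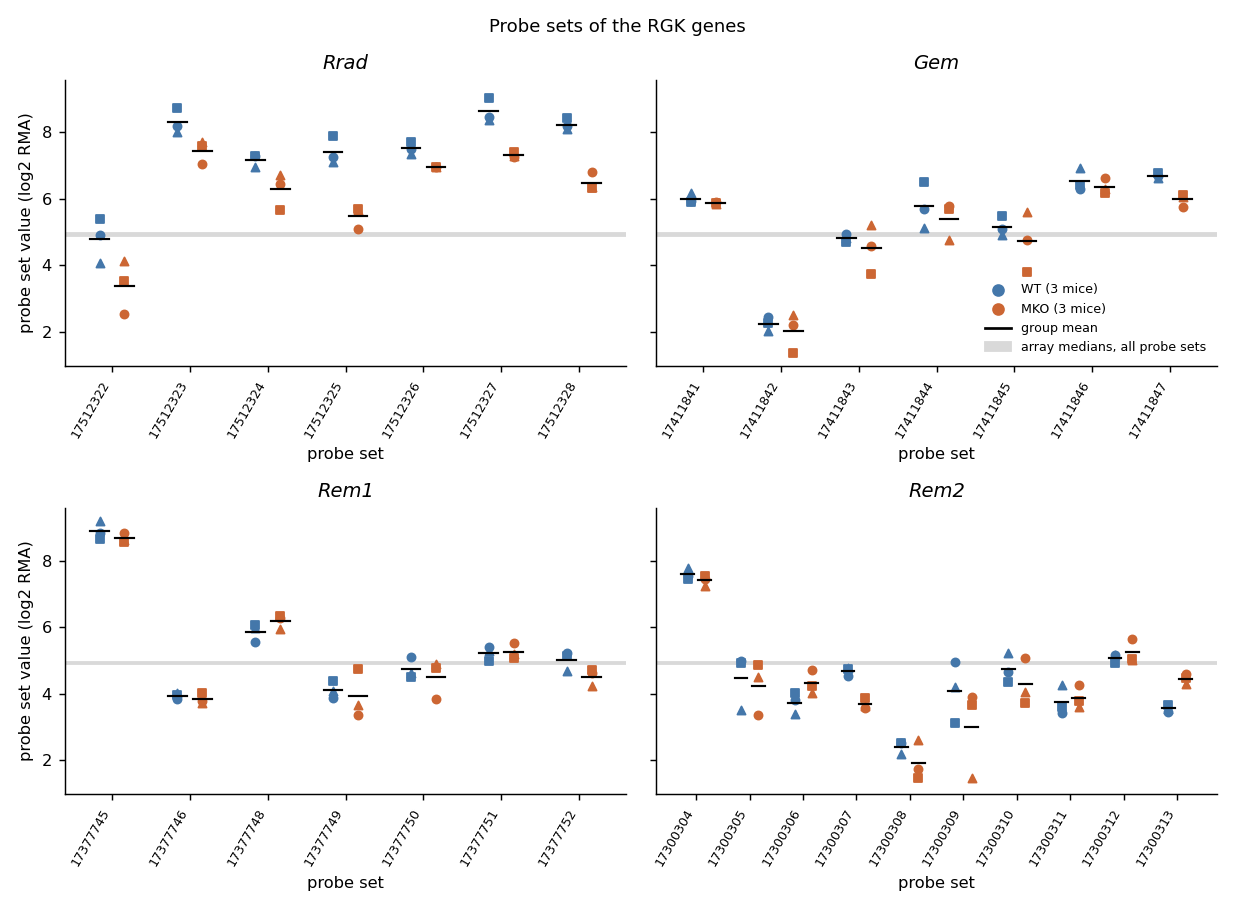
Every probe set of the 4 genes (x axis, probe set number) with its value on each array (y axis, log2 RMA), WT in blue and MKO in orange, mice 1 to 3 as circle, square and triangle, and group means as black lines. The grey band marks the array medians of 4.87 to 4.95. Rrad is lower in MKO on all 7 probe sets, whereas those of Rem2 differ by −1.10 to 0.88.

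Across the family, 25 of the 31 probe sets had a lower mean in MKO and 6 a higher one, where 52.1% and 47.9% of all probe sets did. In 8 the MKO mice were all below the WT mice and in 1 they were all above, where 5.21% and 4.69% of all probe sets were so. Of those 8, Rrad held 6, and Gem and Rem2 held 1 each. At the level of genes, Rrad and Gem were apart and lower, as were 4.99% of all genes, while 4.26% were apart and higher. All 4 genes had a lower mean in MKO, as did 53.4% of genes, and 46.6% had a higher one. No member's difference turned positive when a mouse was left out.

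Next, other genes of the pathways in which RGK proteins work were counted with limma, from lists chosen for this family. No gene of the 23152 passed an adjusted p of 0.05, in either direction. At an unadjusted p under 0.05, limma had 2.41% of genes lower and 1.92% higher in MKO (558 and 444 genes, but 354 and 545 after median centring of the arrays), and the median difference over all genes was −0.01. Among genes above the median level, 61.6% had a lower mean in MKO, with a median difference of −0.04. Unadjusted p-values serve here only to rank genes.

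Voltage-gated calcium channels, the targets of RGK proteins, consist of a pore-forming alpha1 subunit with beta, alpha2delta and gamma subunits, and Stac proteins help to bring them to the membrane of muscle. Of 29 such genes 22 had a lower mean in MKO, with a median difference of −0.08, and limma called 0 at the adjusted threshold and 3 lower and 0 higher at an unadjusted p under 0.05. Without WT replicate 1 the count was 1 lower, and without WT replicate 3 it was 3 lower and 1 higher. Cacnb1, the beta subunit of the skeletal muscle channel, read 7.69, 7.89 and 7.80 in WT and 7.51, 7.53 and 7.52 in MKO. Its mice were apart, with a difference of −0.27 (SE 0.10, limma adjusted p = 0.9997).

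The pore of that same channel did not share the pattern. Cacna1s, named here for its role, stood at 9.97, 9.93 and 10.03 in WT and at 9.77, 10.14 and 10.07 in MKO, a difference of 0.02 (SE 0.09). Cacna1c, the pore of the cardiac and smooth muscle channel, was dimmer and apart, at 4.78, 4.54 and 4.54 in WT and 4.18, 4.26 and 4.30 in MKO (−0.37, SE 0.15), but the difference was 0.03 in probe sets above the median level. Among the remaining beta subunits, Cacnb3 differed by −0.35 (SE 0.17), Cacnb4 by −0.11 (SE 0.17) and Cacnb2 by 0.00 (SE 0.19). Stac2, an adaptor, was lower by 0.40 (SE 0.18), whereas Stac3, the adaptor that skeletal muscle needs for contraction, differed by −0.04 (SE 0.16).

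Proteins that bind RGK members include members of the 14-3-3 family and calcium/calmodulin-dependent kinases. Of 17 such genes measured, 15 had a lower mean in MKO, with a median difference of −0.08, and none had an unadjusted p under 0.05 in limma in either direction. Leaving out WT replicate 3 gave 3 lower genes and 1 higher. Leaving out MKO replicate 3 gave 1 in each direction, and leaving out MKO replicate 1 gave 1 lower. The smallest p was that of Rela, the NF-kappaB subunit that Rad is reported to bind, at 7.61, 7.64 and 7.40 in WT and 7.32, 7.26 and 7.40 in MKO (−0.22, SE 0.11), where the highest MKO mouse reached just below the lowest WT mouse. Of the 7 genes of the 14-3-3 family, 6 had a lower mean, led by Ywhaq (−0.24, SE 0.14) and Ywhab (−0.20, SE 0.13). The exception was Sfn at 0.28 (SE 0.14), read by 1 probe set with overlapping mice.

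Genes of beta-adrenergic and protein kinase A signalling were split, with 15 of 29 lower and 14 higher on average and a median of −0.03. At an unadjusted p under 0.05 limma had 1 higher and 0 lower. With a mouse left out either count was 0 or 1: none was higher without WT replicate 1 or 2 or MKO replicate 1 or 2, and 1 was lower without WT replicate 3 or MKO replicate 2 or 3. The 1 higher gene was Adcy8, an adenylyl cyclase gene with dim probe sets here, at 3.39 to 3.78 in WT and 3.73 to 4.12 in MKO (0.40, SE 0.18). Pkig, an inhibitor of protein kinase A, differed by −0.32 (SE 0.15), the anchoring protein gene Akap5 by −0.28 (SE 0.14) and the phosphodiesterase gene Pde4b by −0.27 (SE 0.16). Akap5 turned to 0.10 with probe sets above the median level.

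The nearest relatives of the RGK proteins, other GTPases of the Ras branch, had no shared direction. Of 30 genes, 16 were lower and 14 higher on average, with a median of −0.03, and in no gene did the 3 MKO mice lie apart from the 3 WT mice. Rasl11b differed by −0.37 (SE 0.17) and was the 1 with an unadjusted p under 0.05 in limma, though none had one without WT replicate 1, WT replicate 2 or MKO replicate 3, and its difference was 0.00 with probe sets above the median level. Rap2b (0.25, SE 0.15), Rit2 (0.27, SE 0.18) and Nras (−0.19, SE 0.14) followed. The measured relatives ranged from −0.37 to 0.27, against −1.24 for Rrad. Rrad was chosen with this difference known, and 1 gene of all had a lower one, so the contrast is no test of Rrad.

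Among 24 genes of denervated and regenerating muscle, settings in which Rrad is known to increase, 18 had a lower mean in MKO, with a median of −0.13. Limma called 0 at the adjusted threshold and had 5 lower and 0 higher at an unadjusted p under 0.05, a count that was 2 without a variance trend, 3 without WT replicate 1, WT replicate 2 or MKO replicate 1, and 6 without WT replicate 3. Myh3, the embryonic myosin heavy chain, read 6.87, 6.68 and 6.41 in WT and 5.71, 6.09 and 6.07 in MKO (−0.70, SE 0.15, limma adjusted p = 0.786). Myog, the myogenic factor that rises on denervation, read 6.82, 7.04 and 7.10 in WT and 6.73, 6.39 and 6.32 in MKO (−0.51, SE 0.14).

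Both of these had every MKO mouse below every WT mouse, as did the intermediate filament gene Des (−0.23, SE 0.06) and Ncam1 (−0.19, SE 0.09). This was the case for 4 of the 24 genes, where 4.99% of all genes were so, and the list was not tested as a set. Ankrd1, a stretch-responsive gene of the sarcomere, was lower by 0.51 (SE 0.20) with overlapping mice. Of the 5 muscle acetylcholine receptor subunits 3 had a lower and 2 a higher mean, from Chrnb1 at −0.38 (SE 0.17) to Chrna1 at 0.21 (SE 0.13). Pax7, the marker of muscle stem cells, differed by 0.24 (SE 0.14). The list's median stayed below 0 under every alternative run, between −0.15 and −0.06.

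**Figure D3:**
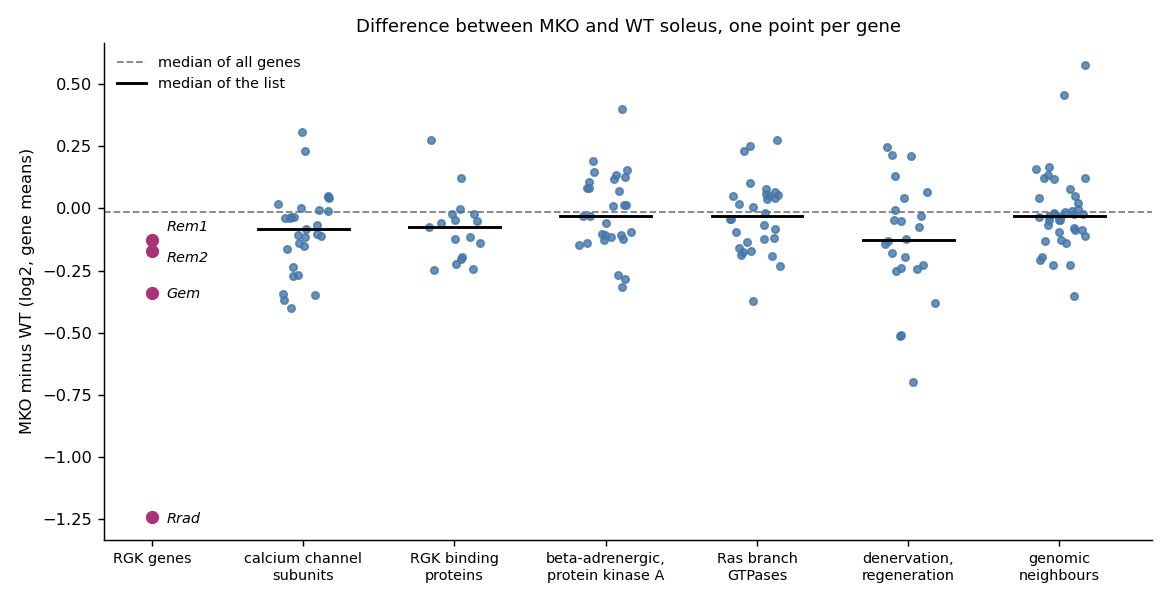
Difference between MKO and WT (y axis, log2) for the 4 RGK genes and for each measured gene of 6 lists, 1 point per gene, with the list median as a black line and the median of all genes, −0.01, as a dashed line. Rrad, chosen with its difference known, is at −1.24, and the lowest point of the lists is Myh3 at −0.70.

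To see which transcripts tracked Rrad from mouse to mouse, its gene value was correlated over the 6 arrays with each of 1627 genes above the median level that varied by an SD of at least 0.25. This likeness includes the difference between the groups and is a description. The gene most like Rrad was Hes1, the transcriptional repressor induced by Notch (r = 0.98), at 5.83, 5.92 and 5.61 in WT and 5.25, 5.37 and 5.38 in MKO. It shared both the lower MKO level (−0.45, SE 0.14) and the order of the WT mice, with replicate 2 highest and replicate 3 lowest.

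After Hes1 came Edem2 of protein quality control in the endoplasmic reticulum, Dcaf17, Spry4, an inhibitor of receptor tyrosine kinase signalling, the secreted protein gene Dcpp3 and Itga5, a chain of the fibronectin receptor. The myosin light chain gene Myl6b and the semaphorin gene Sema6a completed the 8, all with r from 0.97 to 0.98 and differences of −0.64 to −0.44. In all 8 every MKO mouse lay below every WT mouse, as in 4.99% of all genes, and WT replicate 2 was the highest mouse. Both traits follow largely from picking the genes by their r with Rrad, so nothing further is read from them. None passed the adjusted threshold (limma adjusted p from 0.586 to 0.9997).

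The genes most opposite to Rrad were Ppapdc1a, a lipid phosphatase gene (r = −0.99), the matrix protein gene Vwa2 (r = −0.96), Plin5, a coat protein of lipid droplets (r = −0.96), and Gnpda1, an enzyme of hexosamine breakdown (r = −0.95). Ppapdc1a, picked by its r over the same arrays, mirrored Rrad within the MKO group too. It read 5.21, 5.06 and 4.71 in MKO replicates 1, 2 and 3, where Rrad read 6.02, 6.16 and 6.40. In WT it was lowest, at 3.85, in replicate 2, the mouse in which Rrad was highest.

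**Figure D4:**
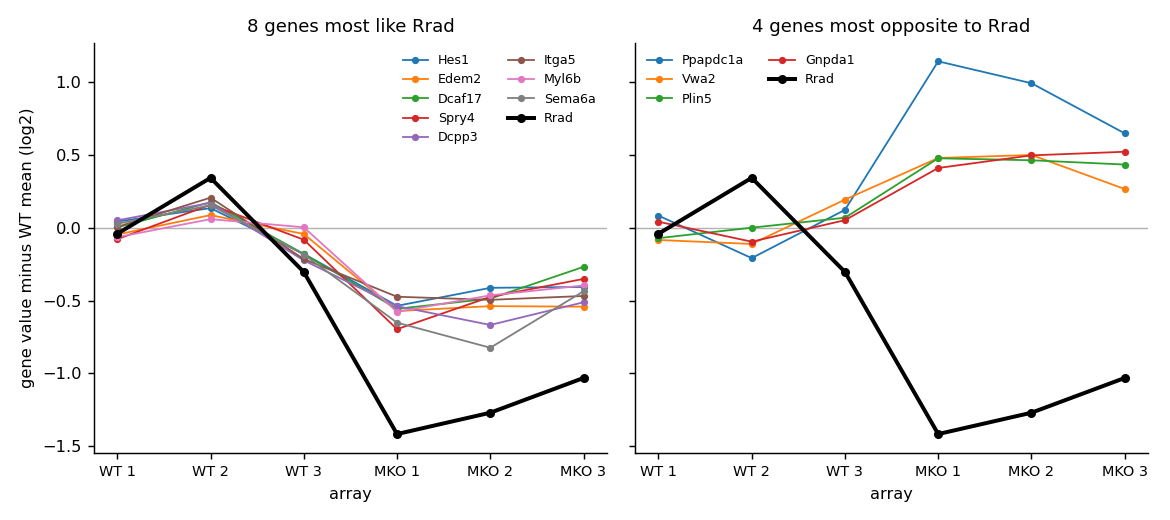
Gene values relative to each gene's WT mean (y axis, log2) on the 6 arrays (x axis) for Rrad (black) with the 8 genes most like it (left) and the 4 most opposite to it (right), lines linking the points of 1 gene. The 8 genes like Rrad differ by −0.64 to −0.44 between the groups, against −1.24 for Rrad.

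The other RGK genes had different nearest genes. For Gem these were Atp5h, a subunit of ATP synthase, the interferon-inducible gene Ifi203 and Plekho2 (r from 0.97 to 0.98), which shared its low value in MKO replicate 2. For Rem1 they were Rfx5, the fatty acid synthase gene Fasn and Cox5b of respiratory complex IV (r from 0.95 to 0.98), all highest in MKO replicate 2. For Rem2 they were Fam84a, Tmem231 and the protocadherin gene Pcdhgb7 (r = 0.97 each), all lowest in MKO replicate 3.

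Genes next to the 4 members on the chromosomes, taken by their order in the RefSeq table of mouse assembly GRCm38.p6, were read as well. Of 39 measured neighbours, 27 were lower and 12 higher on average, with a median of −0.03. The 10 measured neighbours of Rrad differed by −0.35 to 0.16, against −1.24 for Rrad, which was chosen with its difference known. The one among them with an unadjusted p under 0.05 in limma was Car7, a carbonic anhydrase gene, at 5.08, 5.09 and 5.13 in WT and 4.90, 4.79 and 4.55 in MKO (−0.35, SE 0.15). Near Rem1, the apoptosis inhibitor gene Bcl2l1 was higher, at 5.83, 6.09 and 5.98 in MKO against 5.51, 5.29 and 5.75 in WT (0.46, SE 0.15), and near Gem, C430048L16Rik was higher by 0.57 (SE 0.21).

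Lower means in MKO were seen in 53.4% of all genes and in 61.6% of genes above the median level. Their median differences were −0.01 and −0.04. All 7 endothelial markers had a lower mean, with a median of −0.10 and mean levels per mouse that overlapped between the groups. These levels ranged from 6.98 to 7.38 in WT and from 6.77 to 7.14 in MKO. Around the WT mean, the endothelial list stood at 0.01, 0.19 and −0.20 in WT replicates 1, 2 and 3. In MKO replicates 1, 2 and 3 it stood at −0.41, −0.21 and −0.04. Within each group this was the order of the mice in Rrad. Cldn5, of endothelial tight junctions, was the 1 marker with separated mice (−0.73, SE 0.15, limma adjusted p = 0.666), and Cdh5 and Pecam1 differed by −0.10 (SE 0.12) and −0.07 (SE 0.13). Of 6 fibroblast and 6 macrophage markers, 5 each had a lower mean in MKO, with medians of −0.30 and −0.13. The macrophage lysosomal marker Cd68 differed most, at 6.36, 7.08 and 5.89 in WT and 5.24, 5.58 and 6.06 in MKO (−0.82, SE 0.26), and by −1.09 to −0.50 with a mouse left out. In both groups Cd68 ranked the mice as Rrad did. Among the WT mice alone, all other macrophage markers were highest in replicate 1. Averaged over the macrophage list, WT replicates 1, 2 and 3 stood at 0.26, −0.08 and −0.18 around their mean. On that scale MKO replicates 1, 2 and 3 stood at −0.37, −0.15 and −0.09, in the order of Rrad within MKO. The fibroblast list stood at 0.14, 0.02 and −0.16 in WT and at −0.52, 0.02 and −0.17 in MKO. The fibroblast marker Pdgfra differed by −0.34 (SE 0.14), but by −0.0038 with the median of its probe sets. Fibroblast markers had mean levels of 7.88 to 8.18 in WT and 7.52 to 8.06 in MKO, and macrophage markers 5.10 to 5.54 and 4.90 to 5.19. The part of these cells in the Rrad result was not tested.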

How the data were processed

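Soleus RNA of 3 WT and 3 MKO mice was hybridised to Affymetrix Mouse Gene 2.0 ST arrays. The authors deposited log2 values, made with RMA (robust multi-array averaging) in Affymetrix Expression Console, per the submitters' processing notes. The genome build behind the annotation is not stated there. Of 269751 rows, the 233753 with a single symbol in the platform annotation, which is old, were kept, 5106 had several and 30892 none. Probe sets were averaged per gene (median 8).

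Differences (MKO minus WT) came from limma 3.58.1 under R 4.3.3, using lmFit and eBayes with a variance trend, and were adjusted by Benjamini-Hochberg over 23152 genes. The threshold was 0.05. The fit was tested on simulated data. The local pooled error test of the series' design text was not run. With 3 mice a group, exact permutation reaches no two-sided p under 0.1, so precision rests on the number of arrays. Python 3.11.15 drew the figures.

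Members and lists were chosen with earlier results of these data known. The text names all members, Gna13, neighbours with an unadjusted p under 0.05, and the genes most like each member by Pearson r. It also names the 4 genes with the smallest p of each list, except in the neighbour and cell type marker lists. Predicted and small RNA genes were passed over. Myh4, Myh2, Tnni2, Myh7, Tpm3, Ppif, Cd68, Pdgfra, Cacna1s, Cacnb2, Cacnb4, Stac3, Chrnb1, Chrna1, Ncam1, Pax7, Cldn5, Cdh5, Pecam1, C430048L16Rik and Egr1 were added after their values were seen. List entries without a matching symbol are not analysed here. Alternatives were the median of probe sets, brighter probe sets or genes, quantile normalization, median centring, a replicate block, no variance trend, robust moderation, single probe sets and each array left out.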

Additional observations from a re-analysis of the deposited data

How the results depend on the processing

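The Rrad difference kept its sign under all 11 alternatives, between −1.39 and −0.96. The median of probe sets moved it to −0.96 and Gem to 0.12, and with probe sets above the median level Rem1 moved to 0.045 and Rem2 to −0.011. With 1 mouse left out the difference lay between −0.44 and −0.19 for Gem, −0.22 and −0.076 for Rem1, and −0.26 and −0.069 for Rem2. The cause of these shifts was not tested. The replicate numbers did not pair the mice: deviations of same-numbered mice correlated at −0.09, 0.09 and −0.24 over genes. With the replicate number as a block the member differences were the same (Rrad −1.24, SE 0.17) and no gene passed.

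Genes past the adjusted threshold stayed at 0 except for 1 lower gene without WT replicate 3 and 1 higher gene, an immunoglobulin kappa variable gene, without WT replicate 1 (from 0 to 1 in each direction). The lower gene was Rrad, which was chosen on these arrays, so this count is no test of it. At an unadjusted p under 0.05, median centring gave 354 lower and 545 higher genes against 558 and 444 in the deposited values. Quantile normalization gave 575 and 583. Without MKO replicate 3, 975 were lower. Genes above the median level gave 371 and 129, fewer genes being tested, and probe sets above the median level gave 294 higher.

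List medians moved as follows. The median of probe sets gave −0.14 for RGK binding proteins, −0.10 for protein kinase A genes and −0.057 for denervation genes. Probe sets above the median level gave −0.042 for binding proteins and −0.071 for denervation genes. Quantile normalization gave 0.013 for protein kinase A genes. With 1 mouse left out the medians ranged from −0.14 to −0.056 for binding proteins, −0.066 to 0.014 for protein kinase A genes, −0.15 to −0.076 for denervation genes and −0.13 to −0.066 for calcium channel genes. No list gene passed the adjusted threshold under any alternative. Dim probe sets limit the readings of Rem2, Gem and Rem1 and of 1 Rrad probe set. In Gem and Rem1, 3 of 7 probe sets each were above the array median on every array, against 6 of 7 in Rrad and 1 of 10 in Rem2.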

Other observations

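The WT mice ranked alike on all 7 Rrad probe sets, a measure that does not use the knockout. Of 15943 genes with at least 5 probe sets, 15 (0.0941%) had 1 order of the WT mice on every probe set, and 7 of them, Rrad included, shared the order of Rrad, with replicate 2 highest and replicate 3 lowest. Egr1, an immediate early transcription factor of stimulated muscle, was among the 7. Its SD in WT was 0.86, against 0.33 for Rrad. The 6 genes that shared the order with Rrad did not share its difference: 3 had a higher and 3 a lower mean in MKO, from −0.73 for Egr1 to 0.12 for Ppif, and the −0.73 is smaller than the WT SD of Egr1.

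Markers of other cells in the muscle also overlapped between the groups when averaged over each list. Satellite cell markers differed by a median of −0.07, with mean levels of 5.07 to 5.12 in WT and 5.04 to 5.11 in MKO. Nerve and Schwann cell markers, the nearest check for a neural source of Rem2, lay at 3.59 to 3.73 in WT and 3.62 to 3.76 in MKO. Smooth muscle and pericyte markers lay at 6.64 to 6.75 in WT and 6.53 to 6.79 in MKO. Adipocyte markers varied more, by −0.35 to 0.21 around their WT mean in WT and by −0.51 to 0.50 in MKO. Slow fibre markers lay at 9.73 to 9.92 in WT and 9.66 to 9.86 in MKO, with 5 lower and 3 higher on average. Among them Tpm3 alone had separated mice, lower in MKO (−0.31, SE 0.10), as were 4.99% of all genes. Fast fibre markers lay at 10.70 to 10.88 and 9.99 to 10.93.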
